A study of Mus musculus with 3 samples.

Results

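Probe sets of 9 T-box transcription factor genes, Tbx1, Tbx2, Tbx3, Tbx4, Tbx5, Tbx6, Tbx15, Tbx18 and Tbx20, were examined in sorted mouse fetal kidney cells. They were chosen as all probe sets whose platform annotation gives a single symbol among these genes, which gave 19 probe sets for 9 of the 18193 genes measured. All samples belong to 1 group of 3 arrays: cells positive for green fluorescent protein, sorted at E15.5 (Theiler stage 23) from CD-1 mice with the transgene Tg(Meis1-EGFP)FO156Gsat, whose reporter is under control of Meis1. Each array holds a pool of about 20 kidneys from embryos of unknown sex, labelled nephrogenic interstitium at the source and peripheral blastema in the series title. The reporter marks any kidney cell in which the transgene is active, so the sort is not limited to 1 cell type by design. No cells negative for the reporter and no unsorted kidney were analysed here, so the values give what the sorted cells contained and not how they differ from the rest of the kidney.

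T-box proteins bind DNA through a shared domain, the T-box, and act as activators or repressors that set the identity of embryonic tissues. In the urinary tract Tbx18 marks the mesenchyme around the ureter and is needed for its smooth muscle, and the repressors Tbx2 and Tbx3 act in the same mesenchyme. The other members are best known elsewhere: Tbx1 in the pharyngeal arches, Tbx4 in the hindlimb and lung, Tbx5 in the forelimb and heart, Tbx6 in the presomitic mesoderm, Tbx15 in skeletal muscle, skin and skeleton, and Tbx20 in the heart.

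Tbx2, Tbx3 and Tbx18 were above background in the sorted cells, and Tbx1, Tbx4, Tbx5, Tbx6, Tbx15 and Tbx20 were not. Background was set for each array as the 95th percentile of the signals of 71 chemosensory receptor genes, a group best known from sensory neurons. Whether any of these genes is expressed in kidney cells was not tested. The level amounted to signals of 136, 186 and 169 in replicates 1, 2 and 3. Distances below are log2 signal minus this level, so that 1 unit is a doubling. A gene was called above background when limma, one-sided and adjusted over all genes by Benjamini-Hochberg, gave an adjusted p under 0.05. By this rule 3 of 9 T-box members (33.3%) were called, where 57.3% of all genes were. The median distance was -1.06 log2 units over the 9 members and 1.51 over all genes. At the level of single probe sets, 4 of 19 T-box probe sets passed the same rule, against 41.9% of all probe sets. Without a test, 3 of 9 members lay above the level on every array, against 59.2% of all genes, and 4 of 19 of their probe sets, against 45.3% of all probe sets. By limma none of the 71 receptor genes was called, and 1 had an unadjusted p under 0.05, but the level was set on these same genes. Among genes restricted to other tissues, which did not set it, 3 of 43 (6.98%) were called by limma: Prm1 at 0.62 log2 units, Hcrt at 1.02 and Oxt at 3.01, named here after their values were seen.

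**Figure D1:**
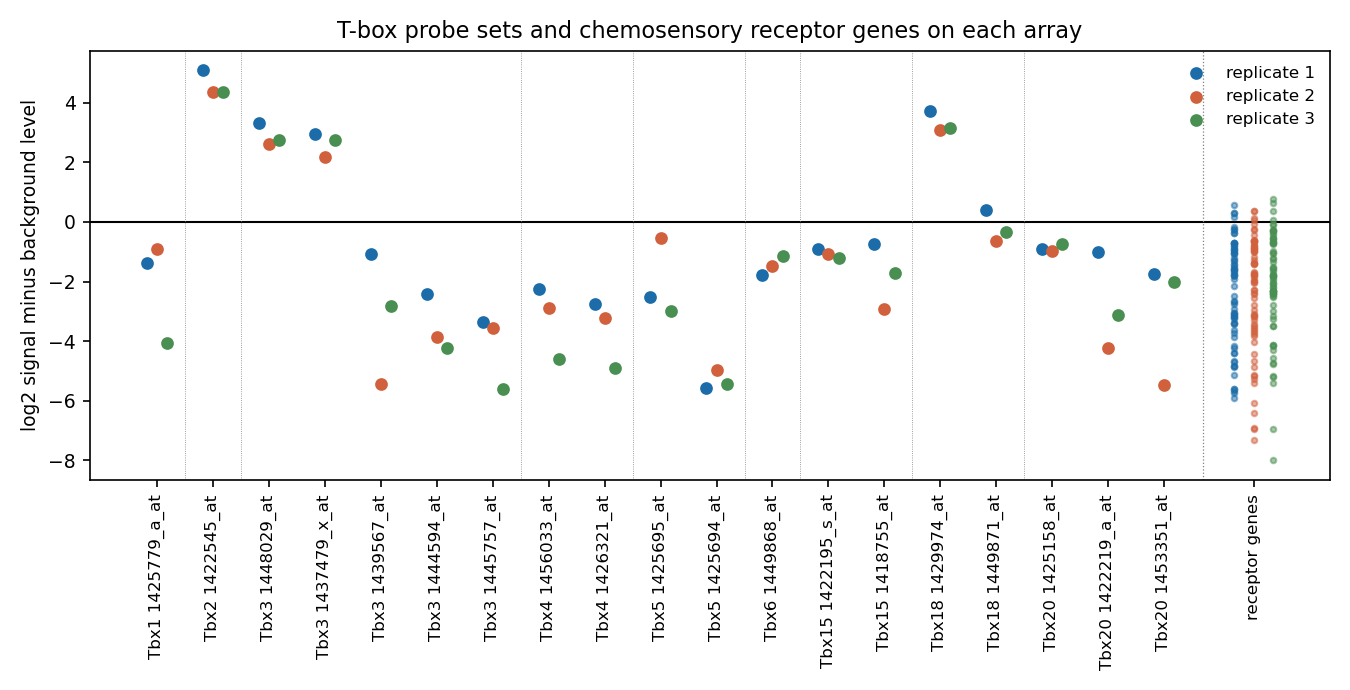
Distance above background (log2 signal minus the array's background level, vertical axis) of the 19 T-box probe sets and, at the right, of the 71 receptor genes; each point is 1 array and the line at 0 is the background level. The 4 called probe sets, of Tbx2, Tbx3 and Tbx18, lie above 0 on all 3 arrays, 14 lie below 0 on every array, and the second Tbx18 probe set lies above 0 on 1 array.

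Tbx2 encodes a repressor known to keep progenitors cycling by repressing cell cycle inhibitors. Its only probe set, 1422545_at, had signals of 4656, 3858 and 3478 in replicates 1, 2 and 3, against background levels of 136, 186 and 169. Every array lay far above its level and above all 71 receptor genes, and the highest array was 1.34 times the lowest. Tbx2 averaged 3997 ± 601 (SD, n = 3), and its distance was 4.61 ± 0.24 log2 units (SE), or 24.4-fold over the level (limma adjusted p = 4.34e-06). With a single probe set, the array offers no second measure of this gene.

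Tbx3 encodes the closest relative of Tbx2, also a repressor. Its brightest probe set, 1448029_at, had signals of 1369, 1143 and 1134 in replicates 1, 2 and 3, all above the background levels and above all 71 receptor genes. Tbx3 averaged 1215 ± 133 by this probe set (SD, n = 3), at a distance of 2.90 ± 0.23 log2 units (SE), or 7.45-fold over the level (limma adjusted p = 3.07e-05). For comparison, Oxt, called among the genes restricted to other tissues, lay at 3.01 log2 units. A second Tbx3 probe set, 1437479_x_at, had signals of 1063, 843 and 1149, at a distance of 2.64 ± 0.25 log2 units (SE, n = 3, limma adjusted p = 0.000309 over all probe sets). Its name ending marks probes that may bind other transcripts. By signal replicate 1 was highest in the first probe set and replicate 3 in the second. By distance above the array's own level, replicate 1 was highest and replicate 2 lowest in both, at 3.33, 2.62 and 2.74 log2 units in the first and 2.96, 2.18 and 2.76 in the second.

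The other 3 Tbx3 probe sets were not called. Probe set 1439567_at had signals of 65.1, 4.31 and 24.1 in replicates 1, 2 and 3, 1444594_at had 25.4, 12.8 and 9.01, and 1445757_at had 13.2, 15.8 and 3.45. All 9 of these values were below background, at mean distances of -3.10, -3.51 and -4.18 log2 units. The call for Tbx3 therefore rests on 2 of 5 probe sets. When the probe sets of every gene were averaged, the level was set anew from the averaged receptor genes. Averaged over all 5, Tbx3 lay 0.85 log2 units below that level (-0.85, limma adjusted p = 1) and lost its call. Where each probe set lies along the transcript was not analysed here.

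Tbx18 encodes a repressor of ureteric mesenchyme. Its probe set 1429974_at had signals of 1824, 1581 and 1515 in replicates 1, 2 and 3. These values were above all 71 receptor genes on each array and differed by 1.20 times between the highest and the lowest. Tbx18 averaged 1640 ± 163 (SD, n = 3), at a distance of 3.33 ± 0.23 log2 units (SE), or 10.1-fold over the level (limma adjusted p = 1.46e-05). Its other probe set, 1449871_at, had signals of 179, 119 and 134, against background levels of 136, 186 and 169. It was above the level in replicate 1 and below it in replicates 2 and 3, with a mean distance of -0.20 ± 0.28 log2 units (SE, n = 3; limma adjusted p = 1). Averaged over both probe sets, with the level set anew in the same way, Tbx18 lay 1.77 log2 units above background and kept its call (limma adjusted p = 0.000627).

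**Figure D2:**
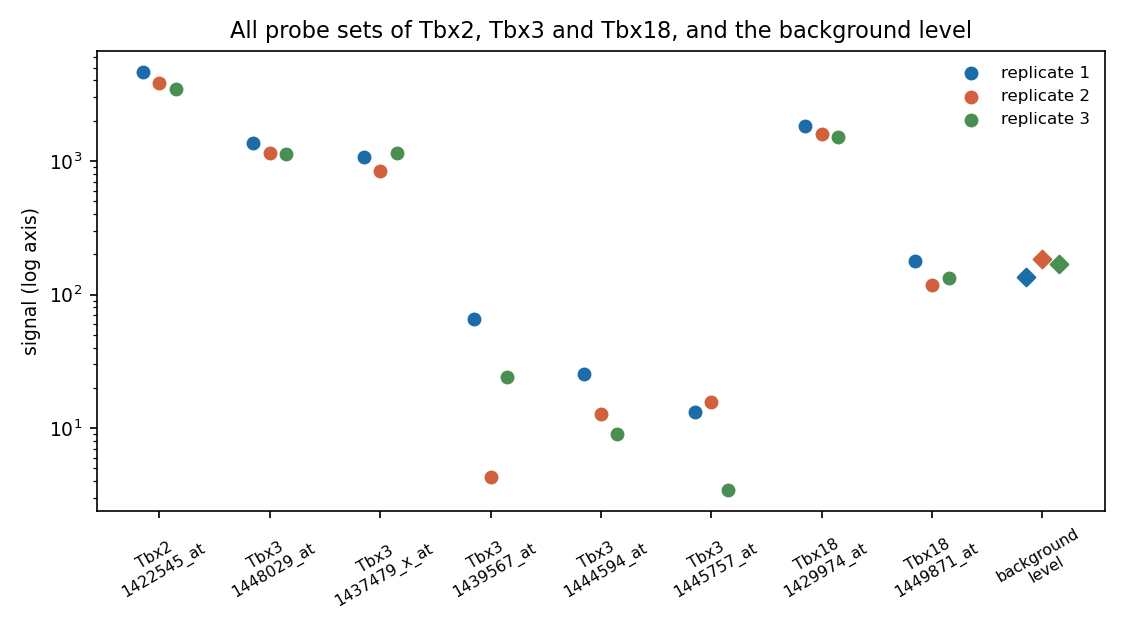
Signal on each array (log axis) of every probe set of Tbx2, Tbx3 and Tbx18, with the background level of each array as diamonds at the right. Tbx2 ran from 3478 to 4656 and the brighter Tbx18 probe set from 1515 to 1824, while 3 of the 5 Tbx3 probe sets stayed at 65.1 or less on every array.

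The called members varied about as much between pools as other called genes did. The SD over the 3 arrays was 0.21 log2 units for Tbx2, 0.15 for Tbx3 and 0.14 for Tbx18, where the median over all called genes was 0.16. Replicate 1 had the highest signal for Tbx2, for Tbx18 and for the brightest Tbx3 probe set, and it also had the lowest background level. Leaving it out gave distances of 4.37 log2 units for Tbx2, 2.68 for Tbx3 and 3.13 for Tbx18, all still called. These arrays measure bulk RNA, so a few cells with much of a transcript and many cells with little cannot be told apart.

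The RefSeq promoter table of build GRCm38.p6 matched 5 of the 9 members with 6 windows, Tbx1 having 2 start sites. Tbx2, Tbx3, Tbx5 and Tbx15 had no entry. The 250 bases before the start are printed for Tbx18, the called member with an entry, and for 2 members that were not called, Tbx20 on the same chromosome and Tbx6. Tbx18 is shown at chr9:87731261-87731510 on the minus strand, Tbx20 at chr9:24774304-24774553 on the minus strand and Tbx6 at chr7:126781233-126781482 on the plus strand, 5′ to 3′, with capitals for a CCAAT box (CCAAT on either strand) or a TATA box (TATAAA on either strand).
Tbx18: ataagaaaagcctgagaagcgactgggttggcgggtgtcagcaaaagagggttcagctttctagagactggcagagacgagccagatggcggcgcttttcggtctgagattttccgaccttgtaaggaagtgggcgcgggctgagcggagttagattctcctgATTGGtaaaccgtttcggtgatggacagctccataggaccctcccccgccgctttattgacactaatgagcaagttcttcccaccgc
Tbx20: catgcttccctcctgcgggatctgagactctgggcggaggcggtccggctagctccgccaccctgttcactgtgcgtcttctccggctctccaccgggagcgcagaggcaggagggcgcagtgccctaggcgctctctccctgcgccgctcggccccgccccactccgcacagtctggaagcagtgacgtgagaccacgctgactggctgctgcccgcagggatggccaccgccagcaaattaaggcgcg
Tbx6: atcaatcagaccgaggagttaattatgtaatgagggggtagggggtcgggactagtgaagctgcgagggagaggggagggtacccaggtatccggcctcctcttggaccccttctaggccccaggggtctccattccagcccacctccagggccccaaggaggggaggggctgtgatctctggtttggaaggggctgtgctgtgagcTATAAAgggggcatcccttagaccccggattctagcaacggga
The Tbx18 window holds 15 CpG dinucleotides, that of Tbx20 22 and that of Tbx6 6, where the median over 32851 windows of the table is 6. A high CpG count was thus found both before a called gene and before one that was not. The CCAAT box of Tbx18 starts 87 bases before the transcript and the TATA box of Tbx6 starts 43 bases before it. Of all windows of this length, 33.8% hold a CCAAT box and 12.4% a TATA box. The letters GGTGTGA, the core of the site that T-box proteins bind, were in none of the 6 member windows on either strand and in 3.33% of all windows. The motifs searched do not overlap in the printed windows, and a match or its absence says only which letters are in these windows.

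The 6 other members had every probe set below the rule, 11 probe sets in all. Their signals on any array ran from 2.88 to 129, with a median of 39.3, and all 33 values were below the background level of their array. On any array between 7 and 63 of the 71 receptor genes lay below the best probe set of such a member, so these signals fell within the range of the receptor genes. A gene not called may still be expressed. Tbx3 and Tbx18 had dim probe sets beside their bright ones, and the reason for this was not tested.

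Tbx20, a cardiac factor, had signals of 72.1, 94.4 and 102 in replicates 1, 2 and 3 in its brightest probe set, 1425158_at, and lay at -0.88 ± 0.20 log2 units (SE, n = 3; limma adjusted p = 1). Its 2 other probe sets, 1422219_a_at and 1453351_at, lay at -2.79 and -3.08. Tbx15, which shares its ancestry with Tbx18, had signals of 72.5, 88.0 and 73.6 in 1422195_s_at and lay at -1.06 ± 0.20 log2 units. Its other probe set, 1418755_at, had 81.1, 24.3 and 51.2 and lay at -1.80. Both genes were below the level on all 3 arrays in every probe set.

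Tbx6, which drives the segmentation of paraxial mesoderm, had signals of 39.3, 66.3 and 76.0 in its only probe set and lay at -1.48 ± 0.22 log2 units (SE, n = 3). Tbx5 had 23.8, 129 and 21.2 in the brighter of its 2 probe sets, 1425695_at. Replicate 2 was 6.08 times the lowest array, yet still below its own level of 186, and the mean distance was -2.01 ± 0.49. The second Tbx5 probe set, 1425694_at, had signals of 2.88, 5.98 and 3.91. Tbx1 had 51.95, 99.7 and 10.2 in its only probe set, 1425779_a_at, and lay at -2.11 ± 0.61. Tbx4 had 28.9, 24.97 and 6.98 in 1456033_at at -3.24 ± 0.46 log2 units and 20.3, 19.9 and 5.64 in 1426321_at at -3.63. The SD over the arrays of these 6 members ran from 0.16 to 1.69 log2 units with a median of 0.81, where the median over all genes not called was 0.56.

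Sorted by ancestry, 2 of 4 members of the Tbx2 subfamily were called (Tbx2 and Tbx3, but not Tbx4 and Tbx5). Of the Tbx1 subfamily 1 of 4 members was called (Tbx18, but not Tbx1, Tbx15 and Tbx20), and Tbx6 was not. The share over all genes was 57.3%, and a difference between subfamilies was not tested. In the RefSeq gene table of GRCm38.p6, Tbx2 is followed by Tbx4 on chromosome 11 and Tbx3 by Tbx5 on chromosome 5 as the next protein-coding gene. In each linked pair the repressor, Tbx2 or Tbx3, was called, and its neighbour was at or below -2.01 log2 units.

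**Figure D3:**
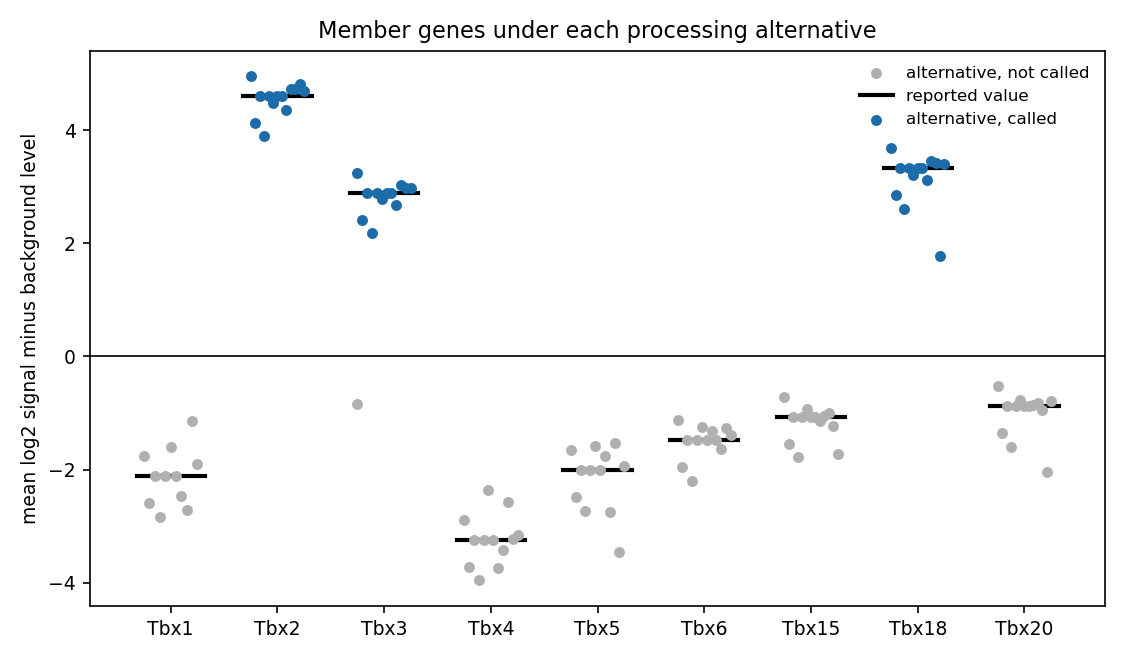
Distance above background (log2 units, vertical axis) of the 9 member genes as reported (black bars) and under up to 13 other ways of processing (points, blue where called and grey where not). Tbx2 and Tbx18 were called in all 13, Tbx3 in 12 with the exception of the mean over probe sets at -0.85, and the other 6 in none.

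Of the 8 further T-box family genes on the list, 6 had a probe set with a single symbol, and T and Tbx10 were not analysed here. Mga, a large protein that carries a T-box beside a helix-loop-helix domain and pairs with Max, was the 1 of 6 that was called (16.7%, against 57.3% of all genes). Its probe set 1434746_at had signals of 6091, 7514 and 6434 in replicates 1, 2 and 3, and the distance of the gene was 5.36 ± 0.20 log2 units (SE, n = 3; limma adjusted p = 1.36e-06). The other 4 of its 5 probe sets were not called, and averaged over all 5 it lay at -0.66. Tbx19, a pituitary factor, lay at -0.27 ± 0.19. Eomes lay at -1.17, the cortical neuron factor Tbr1 at -2.15, the T cell factor Tbx21 at -2.31 and the palate factor Tbx22 at -3.27, and none of these was called.

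Partners of T-box proteins were called in 6 of 12 measured cases (50.0%, against 57.3% of all genes; median distance 1.35 log2 units, against 1.51). The Groucho corepressors Tle1, Tle2 and Tle3, which are recruited by T-box repressors, lay 4.73 ± 0.21, 2.36 ± 0.21 and 6.16 ± 0.20 log2 units above background (SE, n = 3 each). The zinc finger factor Gata6 lay 2.34 ± 0.23 above, but at -0.55 when averaged over its 3 probe sets, a setting that gave 0.64 for Tle3, still called. The cardiac partners Nkx2-5 and Gata4 were not called, at -0.58 ± 0.23 and -0.70 ± 0.25.

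Genes that T-box proteins are known to regulate in other tissues were called in 7 of 14 cases (50.0%, against 57.3% of all genes; median distance 0.32 log2 units, against 1.51). Gja1, a gap junction gene that Tbx2 and Tbx3 repress in the heart, lay 7.88 ± 0.20 log2 units above background (SE, n = 3), with signals of 36465, 42017 and 36792, while Gja5, another such gene, had 9.01, 7.09 and 5.94 and lay at -4.49 ± 0.26. Of the cell cycle inhibitors that Tbx2 and Tbx3 repress, Cdkn1a had signals of 292, 265 and 301 and lay 0.81 ± 0.22 above (limma adjusted p = 0.00956), and Cdkn2a had 40.2, 114 and 37.0 and lay at -1.55 ± 0.33. The Tbx6 targets Dll1 and Mesp2 lay 1.00 ± 0.26 and 0.61 ± 0.20 above (limma adjusted p = 0.00833 and 0.0193). The calls of Cdkn1a, Dll1 and Mesp2 were lost at the 99th percentile of the receptor genes (0.34, 0.52 and 0.13). At that level 4 of 14 targets were called, against 9625 of all 18193 genes. Averaged over its 2 probe sets, Cdkn1a lay at -1.74. The calls of Cdkn1a without replicate 3 (0.81) and of Mesp2 without replicate 2 or 3 (0.59 and 0.66) were lost too.

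Genes that act upstream of T-box genes in other embryonic tissues were called in 9 of 11 cases (81.8%, against 57.3% of all genes; median distance 5.21 log2 units, against 1.51). The hedgehog receptor Ptch1 and its partner Smo lay 7.30 ± 0.20 and 6.12 ± 0.24 log2 units above background (SE, n = 3 each; 1.67 and 2.51 averaged over probe sets), and the forkhead factors Foxc1 and Foxc2, known regulators of Tbx1, lay 4.44 ± 0.21 and 4.70 ± 0.24 above. The ligands Shh and Wnt3a, the second an inducer of Tbx6 in the embryo, were not called, at -1.11 ± 0.23 and -0.38 ± 0.20. Aldh1a2 and Rarb, called at 7.32 ± 0.22 and 5.21 ± 0.22, are also on the list of nephrogenic interstitium genes given below. Bmp4, called too, is also on the list of ureteric mesenchyme genes. The share of upstream genes is thus not independent of those lists.

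**Figure D4:**
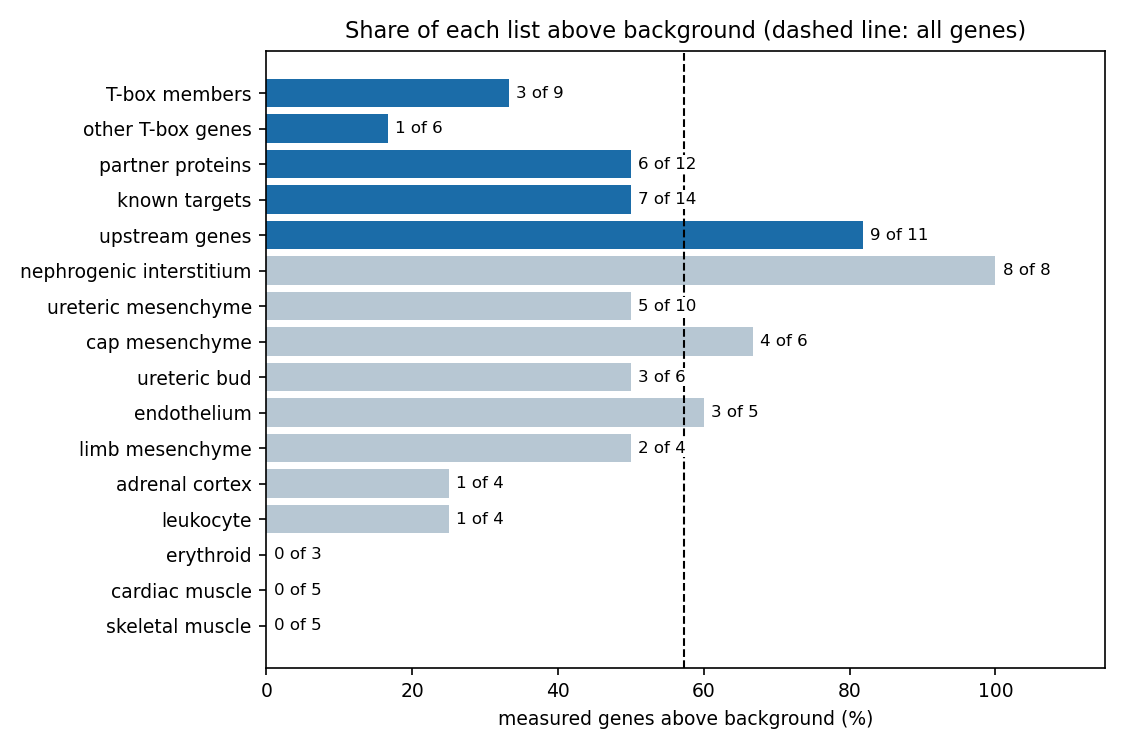
Share of the measured genes of each list called above background (horizontal axis, percent), with the counts beside the bars and the share of all genes, 57.3%, as a dashed line. T-box members stood at 3 of 9 and the other T-box genes at 1 of 6, upstream genes at 9 of 11, and nephrogenic interstitium genes at 8 of 8. Some genes are on several lists.

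The cell type labels were set beside marker lists, which were chosen with earlier results of these data known. All 8 nephrogenic interstitium genes were called, with a median distance of 6.82 log2 units. This list holds Meis1, whose reporter was used for the sort, so the count is no independent check of the label. Cap mesenchyme genes were called in 4 of 6 cases, ureteric bud genes in 3 of 6 and endothelial genes in 3 of 5, where 57.3% of all genes were called. Leukocyte and adrenal cortex genes were called in 1 of 4 cases each and limb mesenchyme genes in 2 of 4. These small counts were not tested against the share of all genes. No erythroid (0 of 3), cardiac muscle (0 of 5) or skeletal muscle gene (0 of 5) passed by limma, and at an unadjusted p under 0.05 the counts were 0, 1 and 0.

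Ureteric mesenchyme, where Tbx2, Tbx3 and Tbx18 are known to act, was called in 5 of 10 of its other genes (50.0%, against 57.3% of all genes). Only 2 of 10 were called when the level was the receptor genes' 99th percentile, when tissue-restricted genes set it, or when probe sets of a gene were averaged. Of all 18193 genes, 9625, 9472 and 9162 were called under these settings, in that order. The summed signal of the list ran from 9249 to 10556 over the arrays, most of it from the contractile gene Acta2, with 7758, 6284 and 6072 in replicates 1, 2 and 3 and a distance of 5.36 ± 0.24 log2 units (SE, n = 3). Tshz3, a zinc finger factor that acts with Tbx18 in the ureter, lay 3.11 ± 0.20 log2 units above background (SE, n = 3), and Bmp4, Foxf1 and Myocd lay 0.88 ± 0.22, 1.07 ± 0.21 and 0.89 ± 0.32 above. Myocd, which switches on smooth muscle genes, had signals of 278, 196 and 498 and lost its call without replicate 1 (0.82) or replicate 3 (0.55). Foxf1, Bmp4 and Myocd lost theirs at the 99th percentile (0.59, 0.40 and 0.41) and with the tissue-restricted level (0.35, 0.16 and 0.17). Averaged over their probe sets, Foxf1 lay at -0.96 and Myocd at -1.13. The 2 genes called under that setting were Tshz3 and Bmp4, so Acta2, with 3 probe sets, lost its call there. Sox9 and Tagln, another contractile gene, were not called, at 0.35 ± 0.22 and -0.41 ± 0.27. The remaining genes of the list, the muscle genes Myh11, Cnn1 and Des, were not called either. They lay at 0.002 ± 0.20, -5.79 ± 0.29 and 0.31 ± 0.21, so Acta2 was the only contractile gene of the list that was called. At the 90th percentile Sox9 was called (0.70). The part of ureteric mesenchyme cells in the Tbx2, Tbx3 and Tbx18 signals was not tested. For the members best known in other organs, the heart genes Myh6 and Nkx2-5 lay at -1.93 ± 0.29 and -0.58 ± 0.23 beside Tbx20 and Tbx5. Among limb genes beside Tbx4, Pitx1, which acts upstream of it in the hindlimb, lay at 0.14 ± 0.23 and Msx2 at -2.24 ± 0.23, while Prrx1 lay 4.03 ± 0.21 above background and Hoxd13 0.77 ± 0.28. Averaged over their probe sets neither was called (0.33 and -1.60). Hoxd13 was not called at the 99th percentile (0.30), with the tissue-restricted level (0.06) or without replicate 1 (0.42).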

How the data were processed

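The authors deposited linear intensity values of 1-colour arrays that had been scaled: the trimmed mean signal (2% off each end) was 1500.01 on all arrays. The submitters' processing notes name GCOS, and its settings were not given in the sources used here. RNA was amplified in 2 rounds, per the labels' protocols. Of 45101 probe sets, 64 controls were set aside, 34945 carried 1 gene symbol, 932 several and 9160 none. Symbols were checked by Entrez ID in a RefSeq table (34741 matched, 0 changed). Each of 18193 genes was represented by its brightest probe set (highest mean log2 signal). All values were above 0, so log2 was taken without a pseudocount.

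Log2 signal minus the background level was fitted with limma 3.58.1 in R 4.3.3 (lmFit with an intercept, eBayes, one-sided), once over all genes and once over 45037 probe sets, with the adjusted p threshold at 0.05. The fit was also run on simulated data with independent noise for each gene and array. That run held no error of an array's background level shared by all genes, so it is no check on such an error. SEs carry the spread of the background levels. The 3 arrays limit the precision, and no label says that the pools were from different litters. The p-values thus cover only spread among these samples, which may be technical. Genes were not ranked by level, since probe affinity differs. The members and lists were chosen with earlier results of these data known. The genes named are all T-box genes and, from the other lists named in the text, the first 4 called and the first 2 not called. Acta2, Prm1, Hcrt and Oxt were added after their values were seen. So were Myh11, Cnn1 and Des, to complete the ureteric mesenchyme list, and Aldh1a2 and Rarb, which lists share. The other marker lists are given by counts. All 3 arrays form 1 group, so no gene was named for a pattern across conditions. Alternatives were other percentiles, a common level, a level from tissue-restricted genes, quantile normalization, log2(signal + 16), a filter on the dimmest 25% of genes, a call without test, other summaries of probe sets and leaving out each array. Where the signals or their summary changed, the background level was set anew. Averaging probe sets gave a mean log2 level of 7.14, against 7.34 as reported, so all distances averaged over probe sets refer to that lower level.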

Additional observations from a re-analysis of the deposited data

How the results depend on the processing

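Tbx2 (3.89 to 4.96 log2 units) and Tbx18 (1.77 to 3.68) were called in all 13 alternatives, Tbx3 in 12, and the other 6 members in none that gave them a value. The mean over probe sets, which adds dim probe sets to bright ones, placed Tbx3 (-0.85), Mga (-0.66, which left 0 of 6 other T-box genes called), Gata6 (-0.55), Cdkn1a (-1.74), Foxf1 (-0.96), Hoxd13 (-1.60), Myocd (-1.13), Pitx1 (-1.45) and Sox9 (-1.18) below background. With background taken from tissue-restricted genes, 4 of 14 known targets and 2 of 10 ureteric mesenchyme genes were called, as at the 99th percentile, and the mean over probe sets also left 2 of 10. Of all 18193 genes, 9472 were called at the tissue-restricted level, 9625 at the 99th percentile and 9162 with the mean over probe sets. The tissue-restricted level placed Mesp2 (-0.11), Pitx1 (-0.58) and Sox9 (-0.37) below background, and the 99th percentile Pitx1 (-0.34) and Sox9 (-0.13). Sox9 was instead called at the 90th percentile (0.70, limma adjusted p = 0.015) and in the call without test (0.35). At the 90th percentile Tbx19 lay at 0.084 and the dim Tbx18 probe set 1449871_at at 0.15, neither called. Leaving out 1 array moved that probe set between -0.49 and 0.026, and Pitx1 between -0.043 and 0.33, without a call. All genes called numbered 9059 to 10976, against 10422 as reported. Leaving out the dimmest genes removed 4 members, and setting aside probe sets able to cross-hybridise removed Tbx1. No paired analysis was possible because there is only 1 group. With 3 arrays, a gene near the level can be missed.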
